A study of Mus musculus with 32 samples.

Results

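The genes described here are 34 known targets of the transcription factor p53 in mouse tumours irradiated with carbon ions or with photons. They were taken by symbol from the deposited table of gene counts, as known targets, and the list was drawn up with earlier results of these data known. All 34 were among the 55103 rows of that table and all 34 passed the filter on low counts, which left 20474 genes for testing. By role, 9 act in cell cycle arrest or feedback on p53, 13 in cell death, 6 in DNA repair or nucleotide supply, and 6 in stress responses or metabolism.

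RNA was sequenced from 32 tumours of KPC36, a mouse pancreatic cancer line, in 4 groups of 8. The carbon-ion arm held tumours treated with carbon ions and untreated controls, and the photon arm held tumours treated with photons and its own untreated controls. The dose, the strain, age and sex of the host mice and the site of growth are not given in the sources used here. Tumours were taken 4 or 7 days after treatment, with controls at the same times, but the labels used here do not tie a library to a day, so the days cannot be told apart in any comparison. KPC lines conventionally come from pancreatic tumours of mice engineered to carry mutant Trp53 under a Cre active in the pancreas, but the labels do not state the genotype of KPC36, and all 4 groups rest on this line alone. The labels call the cells malignant, while RNA came from whole tumour pieces, and the library titles start with D in 4 controls and 3 irradiated tumours of the carbon-ion arm and with M in the rest, with no meaning given. Nothing in the labels says more of how the 8 tumours of a group were raised, so the p-values measure the spread between these samples, which may be technical in part.

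Ionising radiation breaks DNA, and the kinases that sense the breaks stabilise p53, which then switches on genes that stop the cell cycle, repair DNA or start cell death. Mdm2 closes the loop, since p53 induces it and its product marks p53 for destruction. Several of these genes, among them Cdkn1a, Gdf15, Sesn2 and Pmaip1, are also induced without p53, for example by the integrated stress response or TGF-beta.

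p53 binds pairs of 10-base half-sites, each made of 3 purines, C, A or T, A or T, G and 3 pyrimidines, with a spacer of 0 to 13 bases between them. The letters are palindromic, so a search of one strand covers both, and pairs within a window may overlap. Promoter windows from 250 bases before to 50 after the annotated start were taken from RefSeq on GRCm38.p6, the assembly that mm10 also stands for, and 26 of the 34 genes had 1 or more. The genes named without a window are Pmaip1, Tnfrsf10b, Zmat3, Trp53inp1, Rrm2b, Ddb2, Xpc and Perp. Among all 32851 windows, 0.0731% held a pair with 0 mismatches, and of these genes Cdkn1a alone did. With 1 mismatch allowed, 1.09% of all windows and 5 of the 37 windows of these genes held a pair. The 5 matching stretches are shown because they are the only pairs with at most 1 mismatch in the 37 windows of these genes. They are written 5′ to 3′ on the strand of the gene, with capitals marking the half-sites. A match is a resemblance in letters and does not show binding, and a window without one says nothing about p53.
Cdkn1a: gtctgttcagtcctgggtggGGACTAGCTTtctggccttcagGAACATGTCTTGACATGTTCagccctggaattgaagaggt
Bax: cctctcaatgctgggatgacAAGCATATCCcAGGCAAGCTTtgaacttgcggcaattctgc
Ccng1: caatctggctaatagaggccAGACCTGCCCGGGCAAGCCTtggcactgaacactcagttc
Polk: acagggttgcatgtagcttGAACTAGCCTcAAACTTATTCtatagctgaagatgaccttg
Rps27l: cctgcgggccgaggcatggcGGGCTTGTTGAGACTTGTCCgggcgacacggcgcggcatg

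The Cdkn1a stretch lies on the plus strand at chr17:29090886-29090967. It holds 2 overlapping pairs, one with 0 mismatches and a spacer of 12 bases and one with 1 mismatch and a spacer of 0. It belongs to the upstream start of Cdkn1a at position 29090979, which is 2790 bases before the other start at 29093769. The Bax stretch is on the minus strand at chr7:45467070-45467130 and that of Ccng1 on the minus strand at chr11:40755442-40755501. The Polk stretch is on the minus strand at chr13:96519378-96519437 and that of Rps27l on the plus strand at chr9:66946276-66946335. Each of the 5 lies inside its window and before the annotated start that the window was taken around. Polk and Rps27l, like Cdkn1a, have 2 annotated starts. The Polk stretch belongs to the downstream start at 96519187 and so lies within the gene as seen from the upstream start at 96542579. The Rps27l stretch belongs to the downstream start at 66946413 and lies after the upstream start at 66946086. Of these genes, Cdkn1a changed after irradiation in the tests below, and Bax, Ccng1, Polk and Rps27l did not pass the threshold.

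Library totals ranged from 13891863 to 71645903 counts over the 32 tumours, and within-group correlations of log2 expression from 0.953 to 0.985 over 112 pairs. Levels are given as CPM, counts relative to the library total after scaling by trimmed mean of M values (TMM), on the scale where all genes of a library sum to about 1e+06, and effects as log2 fold changes with standard errors (SE) from a single edgeR quasi-likelihood fit to all 32 libraries. A gene was called where its p, adjusted after Benjamini and Hochberg across the 20474 genes, was under 0.05. The smallest count of any of the 34 genes in any library was 6, in Gdf15, and 4 genes fell below a count of 50 somewhere. Trp53 itself had a median of 17.2 CPM in carbon-ion controls, 15.2 after carbon ions, 22.2 in photon controls and 17.2 after photons. Its log2 fold change was -0.07 (SE 0.14, adjusted p = 0.997) after carbon ions and -0.44 (SE 0.14, adjusted p = 0.0684) after photons. A count per gene does not separate mutant from normal Trp53 transcripts.

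Averaged over both beams, 5 of the 34 targets rose and 0 fell. They were Cdkn1a, Trp53inp1, Mdm2, Pmaip1 and Gdf15, so arrest and feedback gave 3, cell death 1, stress and metabolism 1, and DNA repair 0. Over all genes tested, 0.44% were called higher and 0.332% lower in the same comparison. At an unadjusted p under 0.05, 12 of the 34 were higher and 0 lower, against 6.41% and 7.9% of all genes. A log2 fold change above 0 was seen in 29 of 34, against 52.4% of all genes, and the median was 0.10 against 0.01. After each beam alone the counts were smaller. After carbon ions 0 of 34 were called, where the background was 0 in both directions, and 9 were higher at an unadjusted p under 0.05 against 3.68% of all genes and 0 lower against 2.07%. A log2 fold change above 0 was seen in 28 of 34 after carbon ions, against 51.5%, and in 23 of 34 after photons, against 49.9%. DESeq2 called 1 of the 34 after carbon ions, Cdkn1a, and 29 genes over the whole table. After photons 2 of 34 were called higher, Trp53inp1 and Rrm2b, against 1.71% of all genes, and 0 lower, against 2.1%. At an unadjusted p under 0.05, 11 were higher and 1 lower after photons, against 8.87% and 12.7%. DESeq2 called 8 of the 34 after photons (Cdkn1a, Mdm2, Pmaip1, Zmat3, Trp53inp1, Gdf15, Rrm2b and Xpc) and 1550 genes over the whole table, where edgeR called 781. Among the 25 M-titled libraries alone, the average effect gave 1 call among the 34, Cdkn1a, and 9 over the whole table.

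**Figure D1:**
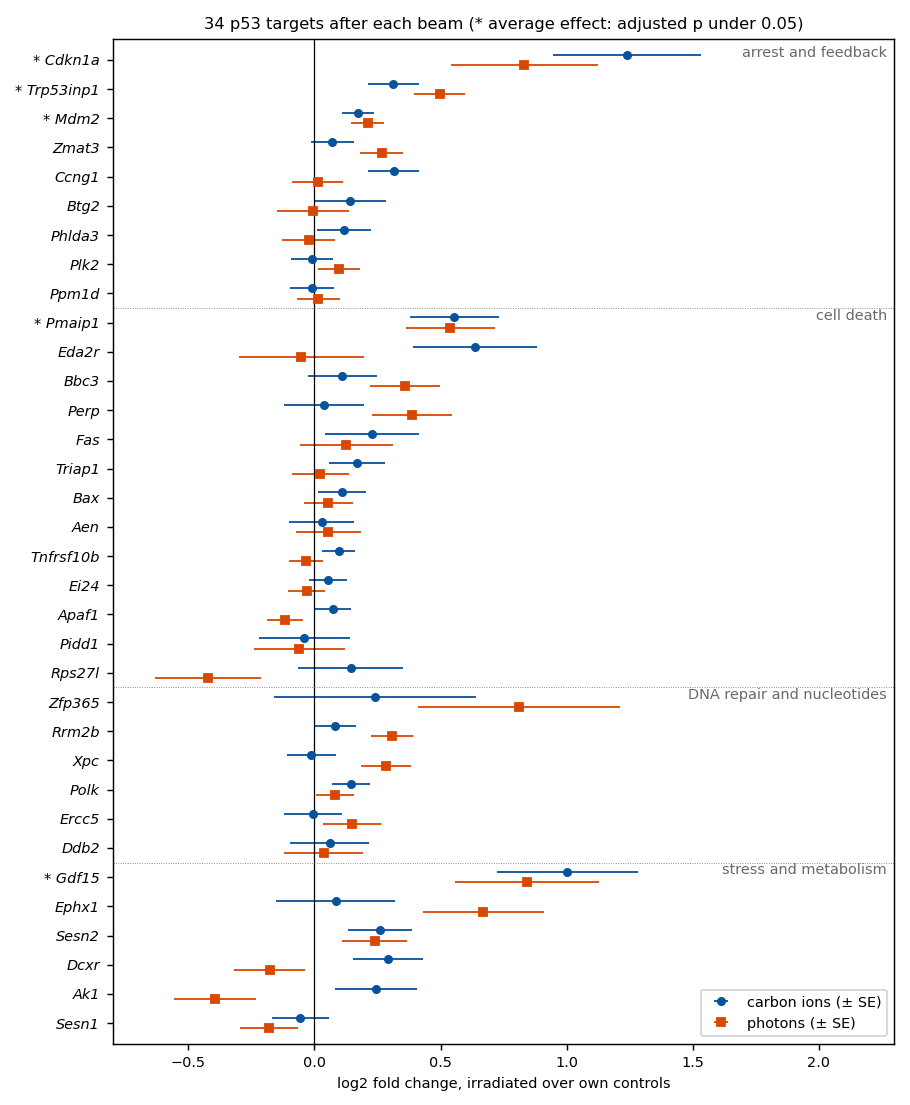
Log2 fold change of each of the 34 p53 targets (vertical axis, grouped by role) after carbon ions (circles) and photons (squares), each against its own 8 controls, with bars of ± 1 SE. Stars mark the 5 genes called in the average of both beams, of which Cdkn1a has the largest value after carbon ions, 1.24.

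Cdkn1a encodes p21, an inhibitor of cyclin-dependent kinases and the classic arrest gene of p53. Its level in carbon-ion controls had a lowest, median and highest value of 18.1, 29.9 and 58.5 CPM, and after carbon ions of 26.6, 83.2 and 129 CPM. The photon controls gave 18.5, 25.97 and 50.8 CPM and the photon-irradiated tumours 25.1, 56.5 and 66.7 CPM. In each arm 5 of 8 irradiated tumours lay above every control and 3 lay within the control range, so the groups overlapped. The average log2 fold change was 1.04 (SE 0.21, adjusted p = 0.0121), a rise to 2.05 times the control level. Taken alone, the effect was 1.24 (SE 0.29, adjusted p = 0.308) after carbon ions and 0.83 (SE 0.29, adjusted p = 0.0913) after photons, neither of them called. DESeq2 called both, and the photon effect was also called when edgeR was fitted to the photon groups alone (adjusted p = 0.0381) or without photon control 4 (adjusted p = 0.0451). The spread after carbon ions was wide, since tumours 2, 3 and 7 stood at 29.2, 38.7 and 26.6 CPM and the other 5 between 77.9 and 129 CPM. Tumours 2 and 3 have D titles and tumour 7 an M title. The carbon-ion log2 fold change was 0.46 (SE 0.43) among D-titled tumours and 1.77 (SE 0.35) among M-titled ones, and neither passed the threshold. Exons of Cdkn1a share 273 bases with a transcript on the opposite strand, and how strand was handled in counting is not given in the sources used here.

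Trp53inp1, whose product helps activate p53 and takes part in autophagy, had the smallest p of the 34 in the average and the photon effect. Levels in carbon-ion controls were 63.9, 71.4 and 80.6 CPM (lowest, median, highest) and 76.1, 86.0 and 109 CPM after carbon ions. Photon controls had 48.03, 65.9 and 87.1 CPM and photon-irradiated tumours 80.5, 93.1 and 104 CPM. All 8 irradiated tumours of each arm were above the median of their controls, and 6 of 8 after carbon ions and 5 of 8 after photons were above every control. In neither arm did any of the 34 genes separate upward without overlap (0 of 34 each), which 0.0195% of all genes did after carbon ions and 0.205% after photons. A placing of all 8 tumours above the control median was shared by 3 of the 34 genes after carbon ions (1.22% of all genes) and 6 after photons (6.93%). The average effect was 0.40 (SE 0.07, adjusted p = 0.00495) on the log2 scale. The photon effect of 0.50 (SE 0.10, adjusted p = 0.00795) was called, and the carbon-ion effect of 0.31 (SE 0.10, adjusted p = 0.521) was not. The difference between them, -0.18 with a 95% interval from -0.46 to 0.10, did not pass the threshold.

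Mdm2 rose by a small amount with little spread. Its lowest, median and highest levels were 47.4, 51.8 and 58.6 CPM in carbon-ion controls and 48.2, 57.1 and 67.0 CPM after carbon ions. In the photon arm they were 44.7, 49.95 and 51.8 CPM in controls and 50.4, 58.4 and 60.5 CPM after irradiation. After photons 7 of 8 tumours exceeded every control, and after carbon ions 3 of 8 did. The average log2 fold change was 0.19 (SE 0.05, adjusted p = 0.0378), made of 0.17 after carbon ions and 0.21 after photons, neither of them called alone. Mdm2 varied little within groups, with a standard deviation of 0.12 on the log2 scale that only 1.64% of genes undercut. The call was lost when any of 7 single libraries was left out, with adjusted p from 0.0507 to 0.0631. It was also lost with upper-quartile scaling (adjusted p = 0.0554) and with no filter on low counts (adjusted p = 0.0714). The libraries were carbon-ion controls 1, 5 and 6, carbon-ion irradiated tumour 4, photon controls 5 and 8, and photon-irradiated tumour 2.

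The other 6 genes of arrest and feedback were not called in the average effect or after either beam in the TMM-scaled edgeR fit to all 32 libraries. Ccng1 encodes cyclin G1, a p53-induced partner of the phosphatase that acts on Mdm2. It had medians of 88.9 CPM in carbon-ion controls (range 80.2 to 134) and 117.5 CPM after carbon ions (100.2 to 136), with all 8 irradiated tumours above the control median. In the photon arm the medians were 82.9 CPM (65.9 to 102) in controls and 86.7 CPM (68.7 to 98.3) after irradiation. The log2 fold change was 0.31 (SE 0.10, adjusted p = 0.521) after carbon ions and 0.01 (SE 0.10, adjusted p = 0.958) after photons, with a difference of 0.30 (95% interval 0.02 to 0.58, adjusted p = 0.367). Zmat3, an RNA-binding regulator of splicing, showed the reverse order, with a difference of -0.20 (95% interval -0.43 to 0.04, adjusted p = 0.482) that did not pass the threshold. Its medians were 87.2 CPM (71.2 to 109) and 91.4 CPM (67.2 to 118) in the carbon-ion arm and 79.2 CPM (72.6 to 85.2) and 96.4 CPM (78.6 to 104) in the photon arm, controls first. Its effect was 0.07 (SE 0.09) after carbon ions and 0.27 (SE 0.09, adjusted p = 0.0687) after photons, where 7 of 8 tumours were above every control. The photon effect of Zmat3 was called by DESeq2 (adjusted p = 0.035), with upper-quartile scaling (0.0421) and when edgeR was fitted to the photon groups alone (0.0211). Phlda3, which restrains AKT signalling, had medians of 56.8 CPM (43.05 to 69.1) and 60.4 CPM (46.3 to 71.4) in the carbon-ion arm and 45.5 CPM (41.6 to 51.3) and 42.2 CPM (34.8 to 59.2) in the photon arm, controls first. Its effects of 0.12 and -0.02 were about the size of their SE or smaller. Btg2, Plk2 and Ppm1d, an antiproliferative gene, a polo-like kinase and the phosphatase that switches the DNA damage response off, had log2 fold changes between -0.01 and 0.14 in both arms.

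**Figure D2:**
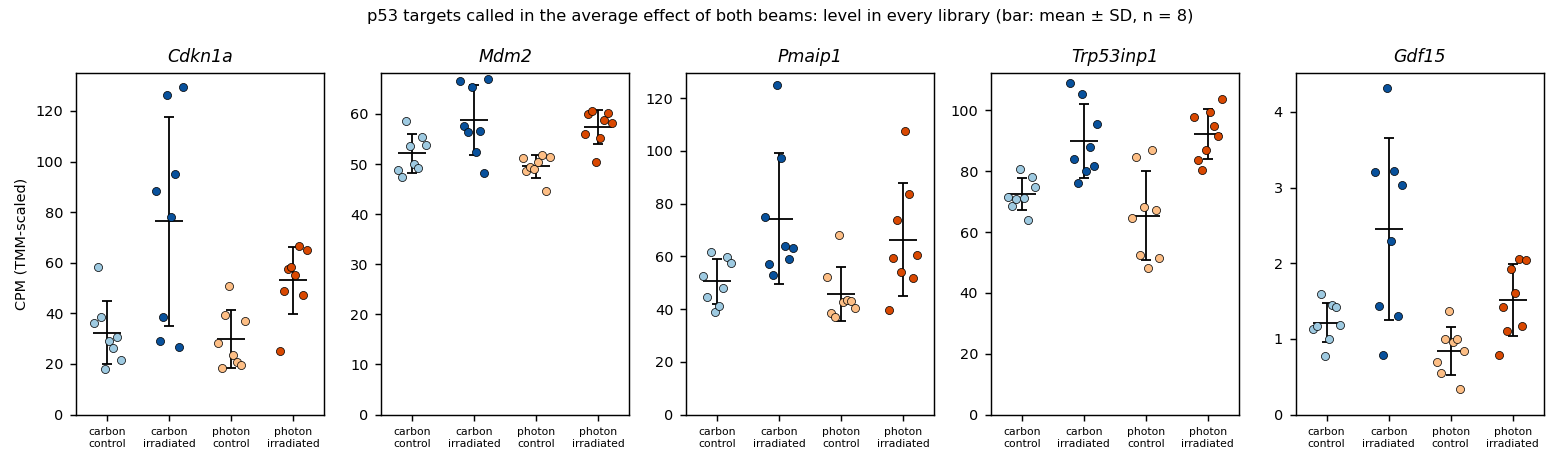
Level in CPM (vertical axis, from 0) of the 5 called genes in each of the 32 tumours, by group, with the group mean and ± 1 SD (n = 8). Cdkn1a, Pmaip1 and Gdf15 spread widely after carbon ions, whereas Mdm2 stays between 44.7 and 67.0 CPM throughout.

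Among the 13 cell death genes, Pmaip1 was called. It encodes Noxa, a BH3-only protein that disables a survival factor of the BCL2 family. The carbon-ion controls had a lowest, median and highest level of 38.9, 50.2 and 61.8 CPM, and carbon-ion irradiated tumours of 53.03, 63.5 and 125 CPM. The photon controls had 36.8, 42.8 and 68.1 CPM, and photon-irradiated tumours 39.6, 60.0 and 108 CPM. All 8 carbon-ion tumours were above the median of their controls, and 5 of 8 after carbon ions and 3 of 8 after photons were above every control. The effects were close in both arms, at 0.55 (SE 0.18) and 0.54 (SE 0.18), and their average was 0.55 (SE 0.12, adjusted p = 0.0319). The call was lost without any of 12 single libraries, with adjusted p from 0.0507 to 0.0719. These were carbon-ion controls 2, 4, 5 and 6, carbon-ion irradiated tumours 1, 4 and 5, photon controls 3, 5, 7 and 8, and photon-irradiated tumour 6.

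Bbc3, which encodes the BH3-only protein Puma, was not called. Its medians were 9.39 CPM (6.12 to 11.996) in carbon-ion controls, 9.80 CPM (8.85 to 11.7) after carbon ions, 8.65 CPM (5.70 to 11.4) in photon controls and 11.0 CPM (8.97 to 16.9) after photons. The photon effect was 0.36 (SE 0.14, adjusted p = 0.122) with all 8 tumours above the control median, and the carbon-ion effect was 0.11 (SE 0.14). Eda2r, a member of the TNF receptor family on the X chromosome, had medians of 5.51 CPM (4.61 to 10.3) and 9.63 CPM (4.81 to 16.2) in the carbon-ion arm and 5.32 CPM (2.33 to 7.96) and 5.25 CPM (3.30 to 7.49) in the photon arm, controls first. Its log2 fold change was 0.64 (SE 0.25, adjusted p = 0.682) after carbon ions and -0.05 (SE 0.25, adjusted p = 0.928) after photons. The difference of 0.69 had a 95% interval from 0.00 to 1.37 and an adjusted p of 0.396. Perp, a desmosome protein that p53 induces in apoptosis, had medians of 71.8 CPM (42.6 to 87.5) and 66.5 CPM (41.2 to 116.7) in the carbon-ion arm and 42.95 CPM (32.8 to 56.6) and 54.1 CPM (43.1 to 71.7) in the photon arm, controls first. Its photon effect was 0.39 (SE 0.16, adjusted p = 0.15), and its carbon-ion effect was 0.04 (SE 0.16).

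The remaining 9 cell death genes had no adjusted p under 0.05 for any irradiation effect. Bax, the pore-forming effector of mitochondrial apoptosis, had effects of 0.11 after carbon ions and 0.06 after photons. The death receptors Fas and Tnfrsf10b gave 0.23 and 0.10 after carbon ions and 0.13 and -0.03 after photons. Apaf1, the core of the apoptosome, gave 0.07 and -0.12, and Pidd1, which builds the complex that activates caspase 2, gave -0.04 and -0.06. Aen, a nuclease of apoptotic cells, gave 0.03 and 0.06, the endoplasmic reticulum protein Ei24 gave 0.05 and -0.03, and the survival factor Triap1 gave 0.17 and 0.02. Rps27l, a ribosomal protein variant that binds Mdm2, was 0.14 after carbon ions and -0.42 (SE 0.21, adjusted p = 0.24) after photons, the lowest photon effect of the 34.

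In DNA repair and nucleotide supply, all 6 genes had a photon effect above 0, and Rrm2b was called after photons. Rrm2b encodes the p53-inducible small subunit of ribonucleotide reductase, which supplies deoxynucleotides outside S phase. Photon controls had a lowest, median and highest level of 16.6, 19.7 and 21.8 CPM and photon-irradiated tumours of 18.9, 24.1 and 27.5 CPM, with 6 of 8 above every control. The carbon-ion arm had 19.5, 21.99 and 24.8 CPM in controls and 19.6, 23.6 and 28.0 CPM after irradiation, and these groups overlapped widely. The photon effect was 0.31 (SE 0.08, adjusted p = 0.0326) and the carbon-ion effect 0.08 (SE 0.08, adjusted p = 0.997), with a difference of -0.23 (95% interval -0.46 to 0.00, adjusted p = 0.405). The photon call was lost without any of 8 single libraries, photon controls 3, 5 and 8 and photon-irradiated tumours 1, 5, 6, 7 and 8, with adjusted p from 0.051 to 0.0875. With no filter on low counts the adjusted p was 0.0736. Exons of Rrm2b share 734 bases with an antisense transcript, and Bax, Ei24, Ddb2 and Ephx1 also share exonic bases with another annotated gene.

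Xpc, which recognises lesions for nucleotide excision repair, had medians of 27.1 CPM (23.2 to 31.5) and 25.5 CPM (21.3 to 35.4) in the carbon-ion arm and 24.5 CPM (21.0 to 33.1) and 30.5 CPM (26.7 to 34.8) in the photon arm, controls first. All 8 photon-irradiated tumours were above the control median, with an effect of 0.28 (SE 0.10, adjusted p = 0.0867), against -0.01 (SE 0.10) after carbon ions. The difference was -0.30 (95% interval -0.57 to -0.02, adjusted p = 0.36). Polk, a polymerase that copies past damaged bases, had medians of 24.6 CPM (21.3 to 27.9), 25.999 CPM (22.7 to 31.2), 25.5 CPM (22.3 to 27.03) and 26.4 CPM (23.7 to 29.6) in carbon-ion controls, carbon-ion irradiated, photon controls and photon-irradiated tumours. Its average effect was 0.11 (SE 0.05, adjusted p = 0.326). The damage sensor Ddb2 and the nuclease Ercc5 had effects between -0.01 and 0.15. Zfp365, a guardian of stalled replication forks, was low, with medians between 1.24 and 1.60 CPM, and its effects of 0.24 (SE 0.40) and 0.81 (SE 0.40, adjusted p = 0.236) carried the largest SE of the 34. Photon-irradiated tumour 3 stood at 8.22 CPM, and 4 of 8 photon-irradiated tumours were above the median of their controls.

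Gdf15 was the called gene among the 6 of stress and metabolism. It encodes a secreted cytokine of the TGF-beta family that tissues release under stress. The carbon-ion controls had a lowest, median and highest level of 0.777, 1.18 and 1.59 CPM, and carbon-ion irradiated tumours of 0.792, 2.66 and 4.31 CPM. The photon controls had 0.333, 0.901 and 1.37 CPM, and photon-irradiated tumours 0.792, 1.51 and 2.06 CPM. As for Cdkn1a, 5 of 8 irradiated tumours in each arm were above every control. The effect was 1.003 (SE 0.28, adjusted p = 0.361) after carbon ions and 0.84 (SE 0.29, adjusted p = 0.0815) after photons, and the average of 0.92 (SE 0.20, adjusted p = 0.0227) was a rise to 1.90 times the control level. These are low levels, and the precision of Gdf15 is limited by counts as small as 6.

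Sesn2, a sestrin that restrains mTORC1 under stress, was not called. Its medians were 17.6 CPM (15.1 to 20.4) and 22.6 CPM (13.9 to 28.2) in the carbon-ion arm and 15.6 CPM (12.4 to 19.2) and 19.6 CPM (14.2 to 22.3) in the photon arm, controls first. In each arm 5 of 8 irradiated tumours were above every control. The average effect was 0.25 (SE 0.09, adjusted p = 0.178). The carbon-ion effect of Sesn2 was 0.26 over all libraries and -0.05 among D-titled ones. Its relative Sesn1 did not share this pattern, with effects of -0.06 and -0.18.

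Ephx1, Ak1 and Dcxr are metabolic enzymes, and none was called after irradiation. Ephx1, an epoxide hydrolase, had medians of 44.8 CPM (26.1 to 52.4) and 34.9 CPM (23.9 to 75.4) in the carbon-ion arm and 17.5 CPM (15.1 to 38.1) and 35.8 CPM (12.5 to 38.7) in the photon arm, controls first. Its photon effect was 0.67 (SE 0.24, adjusted p = 0.0976), and without photon control 2, the highest of its group, it was 0.86 with an adjusted p of 0.0218. Ak1, an adenylate kinase, had medians of 37.4 CPM (22.5 to 64.7) and 41.8 CPM (30.7 to 71.9) in the carbon-ion arm and 40.8 CPM (35.1 to 52.8) and 30.7 CPM (27.5 to 48.05) in the photon arm, controls first. Its effects were 0.24 (SE 0.16) and -0.39 (SE 0.16, adjusted p = 0.15), and 6 of 8 photon-irradiated tumours were below every control. Dcxr, a carbonyl reductase, had medians of 5.01 CPM (4.20 to 5.71) and 6.27 CPM (4.71 to 7.32) in the carbon-ion arm and 4.93 CPM (3.49 to 6.09) and 4.28 CPM (2.42 to 5.63) in the photon arm, controls first. Its effects were 0.29 (SE 0.14, adjusted p = 0.849) and -0.18 (SE 0.14, adjusted p = 0.483).

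**Figure D3:**
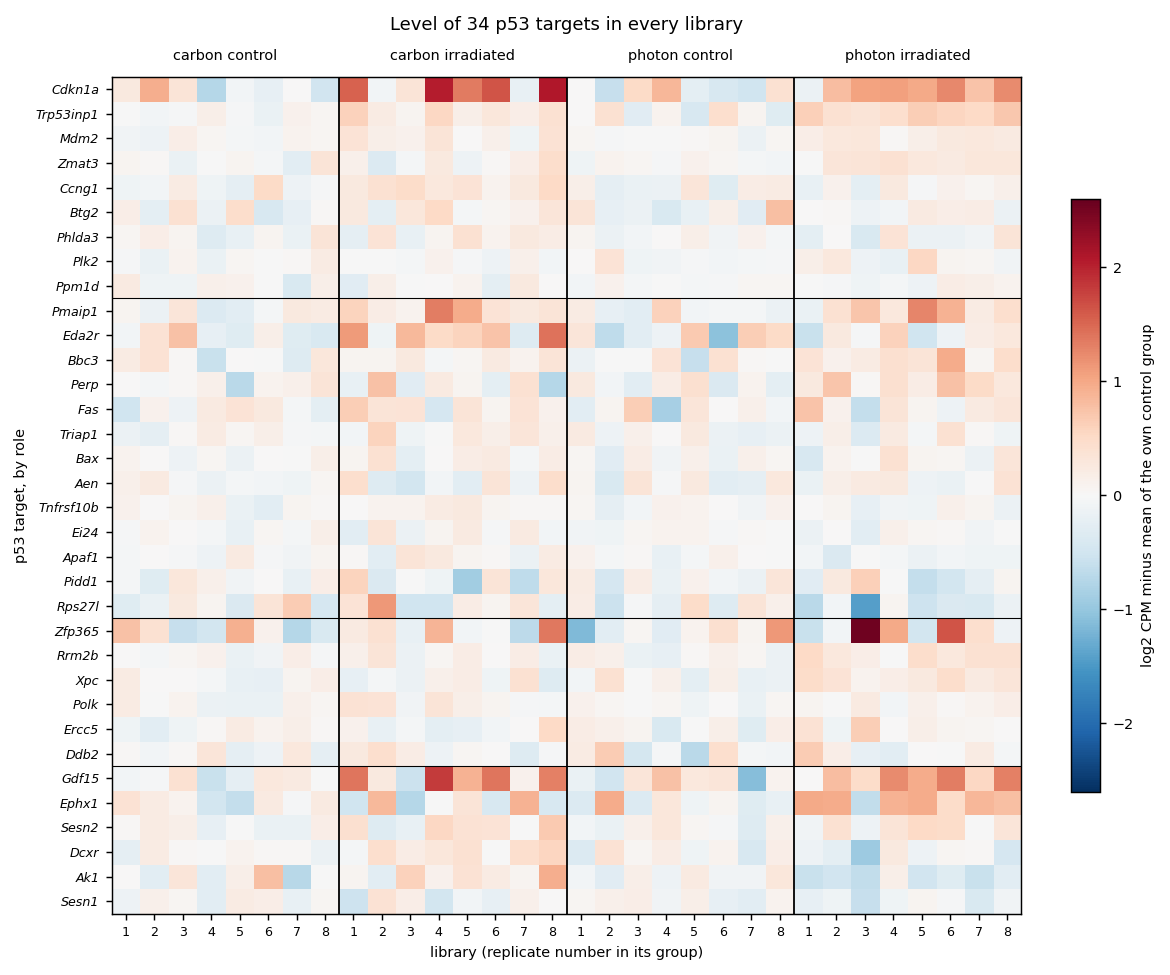
Log2 CPM of each of the 34 genes (rows, by role) in each of the 32 tumours (columns, by group and replicate number), minus the mean of the gene in the controls of the same arm. Cdkn1a and Gdf15 are raised in carbon-ion irradiated tumours 1, 4, 5, 6 and 8 and near control levels in 2, 3 and 7.

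Whether the effects of the beams differed was tested gene by gene in the same fit. Of the 34 genes 0 were called, against 0.0781% of all genes in either direction, and the smallest adjusted p was 0.234, for Ak1. At an unadjusted p under 0.05, 3 of the 34 had the higher log2 fold change after carbon ions (Ccng1, Dcxr and Ak1), against 7.82% of all genes. Only 1 had the higher value after photons (Xpc), against 5.22%. Neither count stood clear of the share over all genes. DESeq2 also called 0 of the 34, with 268 genes called over the whole table against 16 in edgeR. For Ak1 the difference was 0.64 (95% interval 0.19 to 1.09). For Cdkn1a the difference was 0.41 with an interval from -0.40 to 1.21, so a carbon-ion effect larger by up to 1.21 on the log2 scale, or smaller by up to 0.40, is within the error. For Gdf15 the interval ran from -0.62 to 0.94, for Pmaip1 from -0.47 to 0.51, and for Mdm2 from -0.21 to 0.14. Both effects were above 0 in 19 of the 34 genes, against 24.9% of all genes. Both were above 0 with an unadjusted p under 0.05 in 5 of the 34, against 0.493% of all genes, and these were Cdkn1a, Mdm2, Pmaip1, Trp53inp1 and Gdf15. In 9 genes the sign was positive after carbon ions and negative after photons, in 4 the reverse, and in 2 it was negative after both.

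The untreated tumours of the arms were not alike in every gene. Perp was higher in carbon-ion than in photon controls by 0.70 (SE 0.16, adjusted p = 0.00568) and Ephx1 by 1.02 (SE 0.24, adjusted p = 0.00711), while Apaf1 was lower, at -0.25 (SE 0.07, adjusted p = 0.029). These were 2 of 34 higher and 1 lower, against 5.13% and 4.01% of all genes. The Apaf1 call was lost without any of 8 single control libraries, carbon-ion controls 2, 4, 6 and 7 and photon controls 1, 3, 6 and 7, with adjusted p from 0.0541 to 0.079. It was also lost with no filter on low counts (adjusted p = 0.0604), with a term for the title letter (0.131) and among M-titled libraries (0.229). For Cdkn1a the controls differed by 0.12 (SE 0.29, adjusted p = 0.851). Cell markers differed between these controls too. Epithelial markers were higher in carbon-ion controls in 7 of 8 genes (3 called), while fibroblast markers were lower in 8 of 8 (2 called) and endothelial markers in 6 of 6 (1 called), and their part in the differences of Perp, Ephx1 and Apaf1 was not tested. These control libraries also enter the irradiation effects. For Perp and Ephx1, the photon-irradiated medians of 54.1 and 35.8 CPM lay between those of the photon and the carbon-ion controls.

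The pieces held other cells besides tumour cells, and in bulk RNA fewer cells of a type and less RNA per cell cannot be told apart. All 8 epithelial markers listed were detected, with a summed level between 2330 and 5074 CPM, and a median after photons of 3230 CPM against 3219 CPM in controls. After photons, fibroblast markers were lower in 8 of 8 genes (2 called), endothelial in 6 of 6 (2 called), macrophage in 7 of 7 (2 called) and neutrophil in 5 of 5 (3 called). Over all genes, 2.1% were called lower and 1.71% higher after photons, and 49.9% had a log2 fold change above 0. The summed fibroblast level had a median of 15783 CPM (12556 to 26794) in photon controls and 11520 CPM (9133 to 16919) after photons. Skeletal muscle markers ranged from 1.24 to 3212 CPM over all libraries. Pancreatic acinar, erythroid, keratinocyte, B cell and T cell markers each summed to at most 21.0 CPM in every library. Of T cell markers 6 of 7 were lower after photons (1 called) and 1 was higher (called), and muscle and adipocyte markers were lower in 6 of 6 and 4 of 4 with 0 called. After carbon ions 0 genes of any of these lists were called. The part of these changes in the photon effects on p53 targets was not tested.

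Further lists of the pathway were read from the same fit. Of 17 tested regulators of p53, 0 were called after carbon ions or in the average effect and 2 rose after photons, against 1.71% of all genes. Rchy1, a ubiquitin ligase for p53, rose from a median of 34.5 CPM (32.4 to 36.5) to 44.3 CPM (38.9 to 52.2), by 0.37 (SE 0.08, adjusted p = 0.0112), and these groups did not overlap. It was also higher in carbon-ion than in photon controls, by 0.30 (adjusted p = 0.0166). Hipk2, a kinase that primes p53 for cell death genes, rose from 345 CPM (282 to 424) to 434 CPM (398 to 521), by 0.34 (SE 0.10, adjusted p = 0.0413). Of 27 further p53 targets tested, 0 were called for any irradiation effect, and the median average effect was 0.05. The nearest were Sat1, a polyamine acetyltransferase, at 0.29 (SE 0.07, adjusted p = 0.0533) and Gadd45a, a stress sensor of DNA damage, at 0.44 (SE 0.12, adjusted p = 0.077). Of 9 integrated stress response genes, 8 had an average effect above 0, with a median of 0.26, and 1 was called higher, against 52.4% and 0.44% of all genes. This was Ppp1r15a, which reverses the translation block of that response, at 0.50 (SE 0.13, adjusted p = 0.0489).

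How the targets vary together from tumour to tumour was measured against Cdkn1a. Log2 CPM values were centred on each group mean, which removes the mean irradiation effect but not differences in response within a group. The p comes from 100000 shuffles within groups, two-sided, adjusted over 33 genes. The carbon-ion irradiated tumours fall into 2 separate sets in Cdkn1a, so r is also given for the 24 libraries of the other groups. These still include the photon-irradiated tumours. Sesn2 had r = 0.80 and rho = 0.79 over 32 libraries (permutation p = 1e-05, the smallest possible, adjusted p = 0.00033 for r) and r = 0.66 (adjusted p = 0.00891) over the 24. Gdf15 had r = 0.77 and rho = 0.78 (permutation p = 2e-05, adjusted p = 0.00033 for r) and r = 0.66 (adjusted p = 0.0107) over the 24. Both were positive in each of the 4 groups, and both kept r above 0.7 without the 2 libraries farthest from the Cdkn1a median, at 0.75 and 0.73.

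Aen had r = 0.62 and rho = 0.67 over 32 libraries (permutation p = 0.00175, adjusted p = 0.0192 for r), positive in all 4 groups, and r = 0.57 over the 24 (adjusted p = 0.0515). It did not differ detectably between irradiated tumours and controls, so it followed Cdkn1a from tumour to tumour without a called irradiation effect. Pmaip1 had r = 0.52 and rho = 0.45 (permutation p = 0.00489, adjusted p = 0.0403) and r = 0.46 over the 24 (adjusted p = 0.164). Eda2r had r = 0.51 and rho = 0.44 (permutation p = 0.00658, adjusted p = 0.0434), and r = 0.36 over the 24 (adjusted p = 0.329). Rrm2b ran the other way, with r = -0.49 and rho = -0.48 (permutation p = 0.00878, adjusted p = 0.0483), negative in all 4 groups, and r = -0.53 over the 24 (adjusted p = 0.0958). In all, 6 of 33 relations passed by r and 3 by rho (Sesn2, Gdf15 and Aen), and over the 24 libraries 2 passed by r.

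The relations of the feedback genes with Cdkn1a did not pass the threshold. Mdm2 had r = 0.36 and rho = 0.28 (permutation p = 0.114, adjusted p = 0.288), and r = -0.05 over the 24 libraries. Trp53inp1 had r = 0.02 and rho = 0.05 (permutation p = 0.932, adjusted p = 0.937), Ccng1 r = 0.03 and rho = 0.04 (permutation p = 0.854, adjusted p = 0.909) and Phlda3 r = 0.08 and rho = 0.09 (permutation p = 0.682, adjusted p = 0.75). Over the 24 libraries r was -0.35 for Trp53inp1 (adjusted p = 0.329), 0.10 for Ccng1 and 0.26 for Phlda3. The groups did not share a sign. Trp53inp1 had r = 0.68 in the carbon-ion irradiated tumours, which fall into 2 sets, and -0.47, -0.46 and -0.10 in carbon-ion controls, photon controls and photon-irradiated tumours. Mdm2 had 0.71 in the carbon-ion irradiated tumours and -0.32, 0.26 and 0.06 in the other groups in that order. Points of the same library share its depth and cell makeup. The summed epithelial markers had r = -0.08 with Cdkn1a, fibroblast markers 0.16 and skeletal muscle markers -0.02, with adjusted permutation p of 0.859, 0.656 and 0.945 among 65 further relations. Of the 12 summed marker lists, pancreatic acinar markers had the r farthest from 0, at -0.52 (rho -0.47, adjusted permutation p = 0.0597 for r). Keratinocyte markers had r = -0.39 and rho = -0.52 (adjusted permutation p = 0.0373 for rho). Both lists sum to at most 21.0 CPM.

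**Figure D4:**
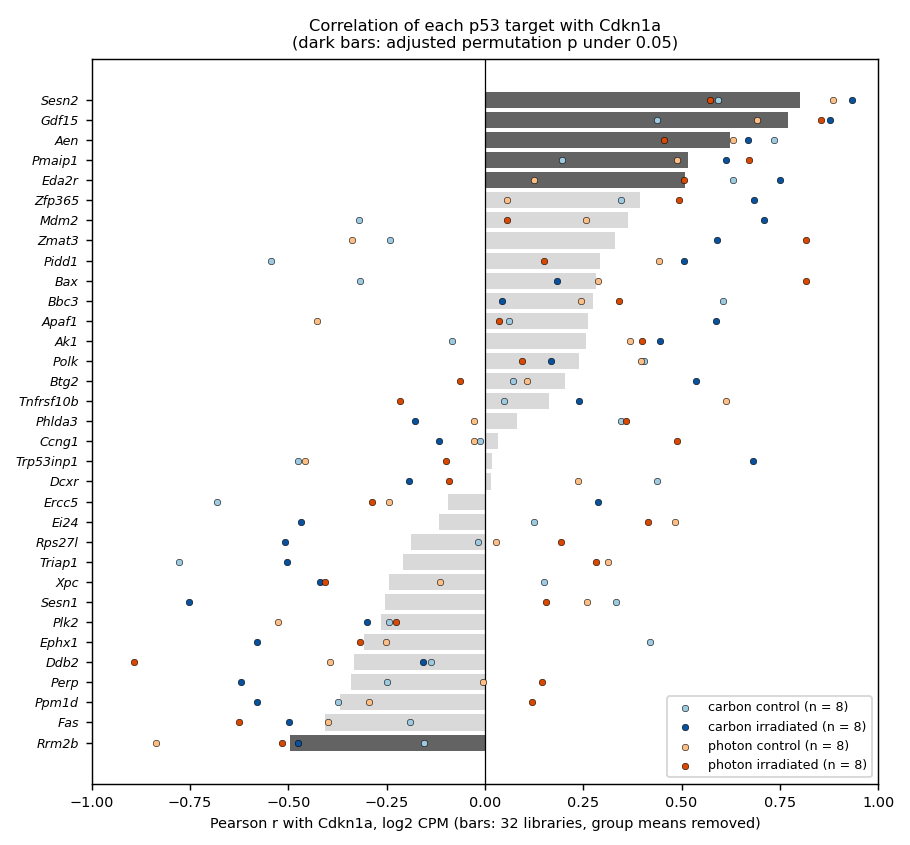
Pearson r of each of 33 targets with Cdkn1a over 32 libraries after removal of group means (bars, dark where the adjusted permutation p is under 0.05), with r within each group of 8 as points. Sesn2 and Gdf15 lead at 0.80 and 0.77, and Rrm2b is lowest at -0.49.

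The same carbon-ion irradiated tumours were high in 4 of these genes. Tumours 1, 4, 5, 6 and 8 were above every carbon-ion control for Cdkn1a, Gdf15, Sesn2 and Pmaip1, and tumours 2, 3 and 7 were not above them for any of the 4. In tumours 2, 3 and 7, Gdf15 was 1.43, 0.792 and 1.30 CPM and Sesn2 was 13.9, 15.3 and 17.5 CPM, within or below the control range. Trp53inp1 did not follow this split, since tumours 2 and 7 were above every control, at 83.9 and 81.8 CPM. In the photon arm, tumours 4, 5, 6 and 8 were above every control for Cdkn1a, Gdf15 and Sesn2, and tumours 1 and 7 for none of them. Pmaip1 did not follow this in the photon arm, where tumours 3, 5 and 6 were above every control. No test was made of these sets, which were seen in the values themselves.

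**Figure D5:**
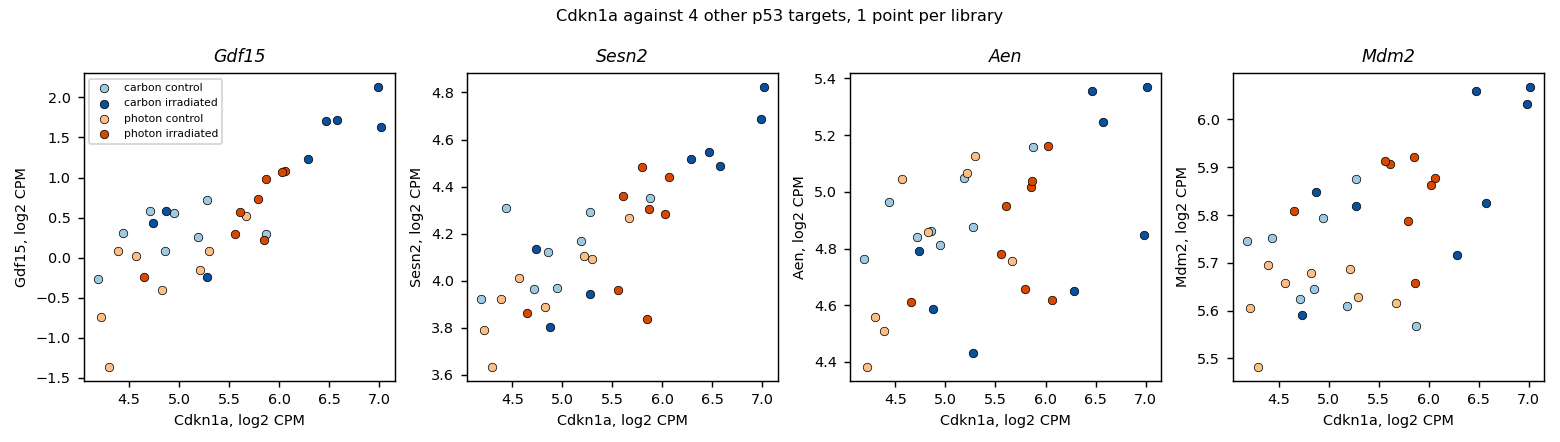
Log2 CPM of Gdf15, Sesn2, Aen and Mdm2 (vertical axes) against log2 CPM of Cdkn1a (horizontal axes), with a point for each of the 32 tumours coloured by group. The 5 high carbon-ion irradiated tumours form the upper right of the Gdf15 and Sesn2 plots. The r of 0.77 and 0.80 given for these genes was computed after removal of the group means, which the plotted values still hold.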

How the data were processed

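Bulk RNA sequencing of 32 KPC36 tumours was used, 8 per treatment label. Per the submitters' processing notes, reads were handled with FastQC 0.12.0, Trimmomatic 0.32 and RSEM 1.3.3 on mm10; the aligner, annotation and handling of strand are not given in the sources used here. The authors deposited estimated counts per gene, which are not whole numbers, and these expected counts were rounded before testing, since the planned tests need whole counts. Rounding changed a library total by at most 0.00403%.

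The main tests used edgeR 4.0.16 under R 4.3.3: filterByExpr with minimum count 10, TMM scaling, and 1 quasi-likelihood model with a coefficient per group. SE was derived from the F statistic, and 95% intervals are 1.96 SE on either side. The average effect is the mean of both beams' effects. Log2 CPM used a prior count of 2. Alternatives were other scalings (DESeq2 size factors, upper quartile), no filter, DESeq2 1.42.0, a term for the title letter, D-titled or M-titled libraries only, only the 2 groups compared, and leaving out each library. The fits were tested on simulated data. Library totals set the precision of low genes.

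The 34 genes and the further lists were chosen with earlier results of these data known. Values by group are given for genes with an unadjusted p under 0.05 in an irradiation effect and for Cdkn1a, Mdm2, Ccng1, Phlda3 and Eda2r. Of the further lists, genes called in an irradiation effect are named, or otherwise the 2 with the smallest p in the average effect. Replicate numbers follow accession order and pair no libraries. Some relations of the closing section are not reported here.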

Additional observations from a re-analysis of the deposited data

Results flagged for a closer look

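In 8 of 72 groups examined, over the 18 genes given with values by group, a single tumour stood apart from the other 7, as judged by its gap to the nearest tumour relative to the range of the group. Chance flags about 1 in 20 groups. Cdkn1a was 25.1 CPM in photon-irradiated tumour 1, where the next lowest was 47.1 CPM. Zmat3 was low in that tumour too, at 78.6 CPM against 93.4 CPM. Mdm2 was 44.7 CPM in photon control 7, where the next was 48.6 CPM. Bbc3 was 16.9 CPM in photon-irradiated tumour 6, where the next highest was 11.9 CPM. Perp was 42.6 CPM in carbon-ion control 5, where the next was 66.5 CPM. Ak1 was 48.05 CPM in photon-irradiated tumour 4, where the next highest was 35.5 CPM. Ephx1 was 38.1 CPM in photon control 2, where the next highest was 23.8 CPM, and 12.5 CPM in photon-irradiated tumour 3, where the next lowest was 27.1 CPM.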

How the results depend on the processing

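The 5 calls of the average effect became 1 among M-titled libraries alone (Cdkn1a at 1.30, adjusted p = 0.0167), where 9 genes of the whole table were called; Trp53inp1 and Gdf15 then had an adjusted p of 0.0554, Pmaip1 0.08 and Mdm2 0.093. Leaving out single libraries gave 3 to 5 calls, where 65 to 397 genes of the whole table were called. There were 3 calls without carbon-ion controls 5 or 6, carbon-ion irradiated tumour 4, or photon controls 5 or 8. The other settings gave 4 to 6, where 98 to 476 genes of the whole table were called. The 2 photon calls became 5 with upper-quartile scaling, 1 with no filter, 8 with DESeq2 and 5 when only the photon groups were fitted, while calls over the whole table went from 781 to 960, 431, 1550 and 852, and 1 to 6 without single libraries. They became 1 without photon controls 3, 5 or 8 or irradiated tumours 1, 6, 7 or 8, 4 without photon control 2 and 6 without photon control 4, with 239 to 504, 1656 and 992 genes called over the whole table. The 0 carbon-ion calls became 1 with DESeq2, where 29 genes of the whole table were called. They were 0 without any single library, where 0 to 5 genes of the whole table were called. The difference between beams stayed at 0 calls in every setting run, where 1 to 268 genes of the whole table were called, and the controls gave 2 or 3, where 973 to 2379 were. The 6 relations with Cdkn1a became 3 among M-titled libraries and 2 without the carbon-ion irradiated group, a check added after the data were seen. A fit of arm and irradiation as additive terms, also added then, gave 5 calls of the average effect and 98 over the whole table. Some signs turned. The carbon-ion effect of Sesn2, 0.26 over all libraries, was -0.0503 among D-titled libraries, and the photon effect of Phlda3 was 0.0122 with upper-quartile scaling. Without single libraries, photon effects ranged from -0.0229 to 0.0603 for Ccng1, from -0.0823 to 0.0294 for Phlda3 and from -0.158 to 0.053 for Eda2r. In all these cases the cause was not tested. No paired analysis was possible because the labels give no replicate numbers.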

Other observations

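Beyond the listed targets, 65 relations with Cdkn1a were computed after those of the 33 targets had been seen, over p53 regulators, further targets, stress response genes and summed cell markers. Of those reported here, Chac1 and Atf4 passed by r at an adjusted permutation p under 0.05. These genes of the integrated stress response had r = 0.57 and 0.57, with rho = 0.58 and 0.59 (permutation p = 0.00078 and 0.00226, adjusted p = 0.0169 and 0.0367). Chac1 was positive in all 4 groups and Atf4 in 3, with a lowest r within a group of 0.33 and -0.23. Without the 2 libraries farthest from the Cdkn1a median, r was 0.52 for Chac1 and 0.46 for Atf4. These relations were not computed without the carbon-ion irradiated group. Trp53 itself had r = 0.12 and rho = 0.10 (permutation p = 0.576, adjusted p = 0.764).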
